A study of Rattus norvegicus with 17 samples.

Results

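The Ntsr1/Chrna3 cells are dorsal root ganglion neurons of the rat that carry RNA for the neurotensin receptor Ntsr1, the nicotinic receptor subunit Chrna3, or both. They were chosen from measured values. A cell entered when N, the sum of Ntsr1 and Chrna3, reached at least 30 UMIs per 1000000 UMIs of the cell (CPM) and was not exceeded by G, the sum of Gzmbl3, Dapk2, Lpar3 and Crct1. A member also had Th under 50 CPM, Clmp under 30 CPM, and Sst plus Nppb under 300 CPM. By this rule 171 of the 830 cells with at least 2000 genes and 20000 UMIs were members, or 20.6%. A UMI is a molecular tag that marks each captured RNA molecule once, so these values count molecules and not copies made by PCR.

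All cells came from the L4 and L5 ganglia of both sides of naive adult male Sprague-Dawley rats, with no injury or treatment group and no transgene. Single neurons were picked by hand with a mouth pipette and read by a modified Smart-seq2 method that tags the 3′ end of each RNA. The labels describe picking 15 min after plating and also picking of cells with neurites after 72 hours in culture, and do not say which batch is which. They also speak of picking labelled cells under fluorescence and do not name the label. All cells are therefore a single group in 17 batches, and what a batch shares (rats, day or time in culture) cannot be told apart. Batch 21 holds the same values as batch 20 and was counted with it as 1 batch, which leaves 16 batches and 1040 cells before the depth minimum.

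Nociceptors are the sensory neurons that report tissue damage, and they are usually divided into peptidergic neurons, which release peptides such as CGRP and substance P, and non-peptidergic neurons, which respond to ATP through the channel subunit P2rx3. Neurotensin acts through Ntsr1, a G protein-coupled receptor, and its peptide precursor is encoded by Nts. Chrna3 is a ligand-binding subunit of heteromeric nicotinic acetylcholine receptors, and in mouse and human it is known as a marker of mechanically silent nociceptors of deep tissue. Chrnb4, Chrna5 and Chrnb3 encode subunits that can assemble with it.

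The start sites of the genes that define the cells are shown by the 250 bases before each start (RefSeq, GRCr8, 5′ to 3′ on the gene's own strand). Those of Perp and Nts are added. Both passed the test below as higher in the members than in all other cells, Nts near the threshold. Ntsr1 lies on the plus strand at chr3:187983528-187983777, Chrna3 on the minus strand at chr8:64311252-64311501, Perp on the plus strand at chr1:15361534-15361783, and Nts on the minus strand at chr7:39460889-39461138. Capitals mark the GC box GGGCGG and the AP-1 site TGANTCA, each searched on both strands.
Ntsr1: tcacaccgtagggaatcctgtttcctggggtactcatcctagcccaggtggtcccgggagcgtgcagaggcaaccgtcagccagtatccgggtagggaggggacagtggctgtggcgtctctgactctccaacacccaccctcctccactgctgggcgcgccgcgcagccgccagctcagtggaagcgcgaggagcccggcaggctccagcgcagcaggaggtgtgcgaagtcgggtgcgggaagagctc
Chrna3: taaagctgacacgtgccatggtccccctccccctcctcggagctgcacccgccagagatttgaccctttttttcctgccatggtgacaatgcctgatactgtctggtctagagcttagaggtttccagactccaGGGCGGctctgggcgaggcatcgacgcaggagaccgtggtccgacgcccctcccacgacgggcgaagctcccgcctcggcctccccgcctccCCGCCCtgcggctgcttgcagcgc
Perp: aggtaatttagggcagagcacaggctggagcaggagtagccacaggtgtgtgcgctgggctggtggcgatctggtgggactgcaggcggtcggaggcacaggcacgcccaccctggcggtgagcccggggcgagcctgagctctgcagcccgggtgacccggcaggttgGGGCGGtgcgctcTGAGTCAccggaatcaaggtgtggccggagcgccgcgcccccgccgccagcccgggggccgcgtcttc
Nts: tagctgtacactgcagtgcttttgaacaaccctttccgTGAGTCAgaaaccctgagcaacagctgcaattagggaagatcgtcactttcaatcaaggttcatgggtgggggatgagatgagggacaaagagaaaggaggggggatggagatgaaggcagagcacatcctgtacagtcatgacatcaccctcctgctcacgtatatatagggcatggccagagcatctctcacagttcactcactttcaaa
Chrna3 holds 2 GC boxes in this window, Perp holds 1 GC box and 1 AP-1 site, Nts holds 1 AP-1 site, and Ntsr1 holds neither. Of all 33469 promoters in the table, 30.5% hold a GC box and 6.34% an AP-1 site in these 250 bases. Among the 8430 genes tested against all other cells that have an entry, the shares were 60.8% and 4.25%. Among genes higher in the Ntsr1/Chrna3 cells they were 58.4% and 4.99%, and among genes lower there 59.4% and 7.81%. These matches describe letters in the reference and are not evidence of binding.

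The members ran from 6 to 23 cells per batch, with a median of 9.5. Their share of the kept cells was 22.0% ± 9.48 (SD, n = 16 batches), from 10.0% in batch 20 to 43.3% in batch 24, and no test was made because the cells were picked by hand. Their median depth was 210685 UMIs and 9054 genes per cell, against 179850 UMIs and 8656 genes in all other cells. The batch medians of log10 UMIs differed by 0.061 ± 0.192 (SD, n = 16; two-sided sign-flip permutation test, p = 0.225, higher in 9 of 16 batches). Median genes per cell were higher in the members by 599 ± 1047 (SD, n = 16; permutation p = 0.0290, higher in 11 of 16 batches). Counts of called genes with each cell thinned to 20000 UMIs are given with the limits at the end.

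**Figure D1:**
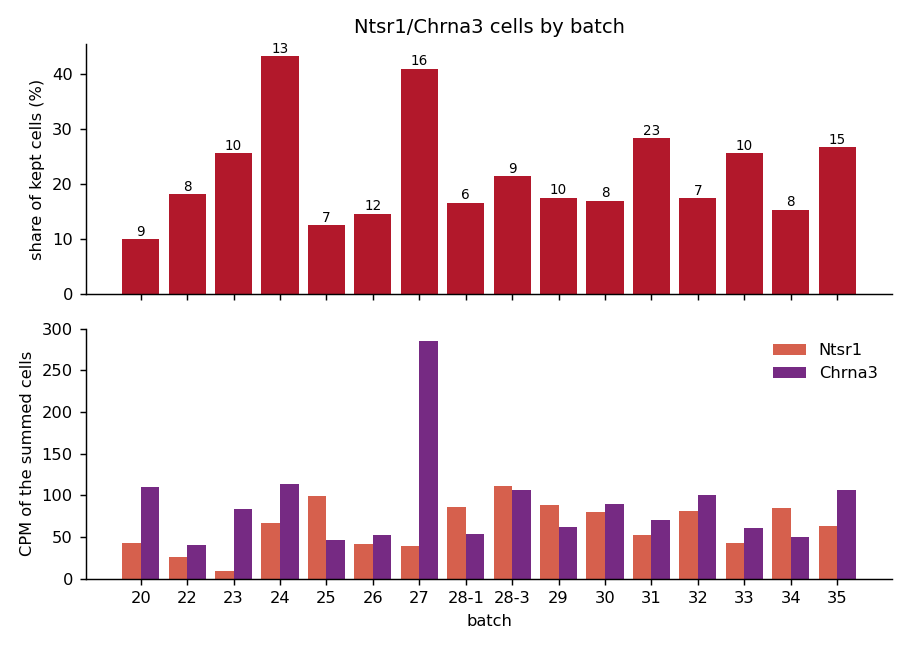
Upper panel: share of the kept cells of each batch that were Ntsr1/Chrna3 cells (%), with their number above each bar. Lower panel: CPM of Ntsr1 and Chrna3 in the summed UMIs of those cells. The share ran from 10.0% to 43.3%, and Chrna3 stood highest in batch 27, at 286 CPM.

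3 batches stood apart. In batches 23 and 24 the summed members held Fos, an immediate-early gene, with values of 269.7 and 222 CPM, whereas the remaining 14 batches ran from 0 to 19.3 CPM. The same 2 sums were lowest for the neuropeptide gene Gal, at 379 and 554 CPM against 744 to 2429.5 CPM, and for the injury-response gene Sprr1a, at 196 CPM in both against 243 to 662. Fos was at 31.5 to 112 CPM in all other cells of those batches and at 1.63 to 67.6 CPM in all other cells of the remaining 14. The mitochondrial share of UMIs was 1.52% and 1.10% in the member sums of batches 23 and 24, against 0.560% to 0.948% in the remaining 14, and its part in the results was not tested. Batch 28-1 had the shallowest member sum, 524191 UMIs from 6 cells, where the highest was 5797036. Counts with these 3 batches left out stand beside each main count below.

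Because the rule used N, its values are a description. N ran from 30.4 to 828 CPM with a median of 114 CPM, which rested on a median of 22 UMIs of the 2 genes per cell. Only 7 members rested on 1 or 2 UMIs, and their median depth was 32539 UMIs. G had a median of 22.6 CPM in the members, and in 108 of them it was under 30 CPM. Of 322 cells with N at or above 30 CPM, 65 that met the other limits were left out because G was above N, and among those with G at most N the Clmp limit stopped 40, the Th limit 17 and the Sst plus Nppb limit 16.

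The line at 30 CPM did not fall in a gap. The 14 members with N from 30 to 40 CPM had medians of 83.6 CPM for Perp and 97.2 CPM for Tmem45b, and the 14 cells just outside, with N from 20 to 30 CPM, had medians of 76.6 and 116 CPM. The cells just outside were shallower, at 103649 against 240196 UMIs. The 65 cells with G above N had 173 CPM of Perp and 177 CPM of Tmem45b, near the members' 165 and 199 CPM. The 40 cells stopped by Clmp had 26.0 and 19.1 CPM.

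**Figure D2:**
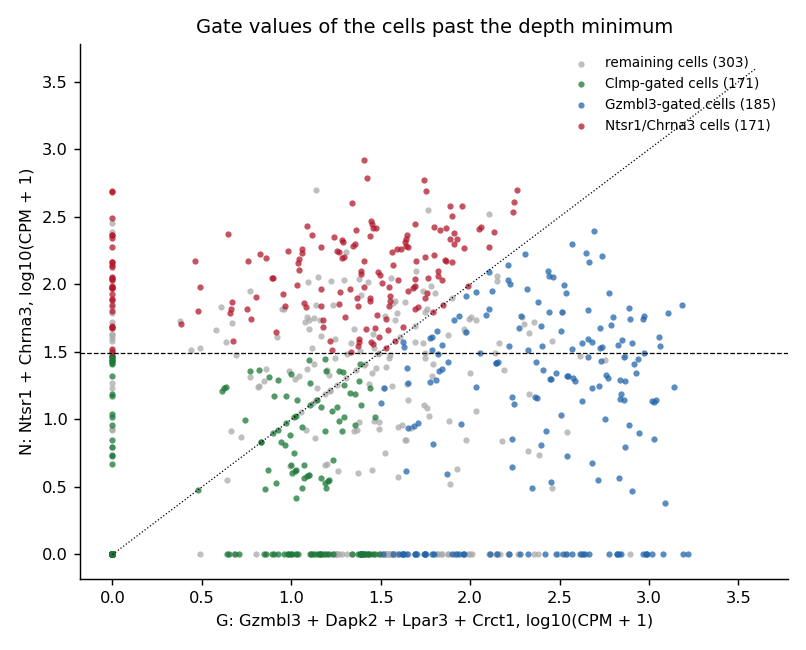
Each point is 1 of 830 cells, placed by G and N on log10(CPM + 1) axes and coloured by gate. The dashed line is N = 30 CPM and the dotted line is G = N. The Ntsr1/Chrna3 cells lie on or above both lines without a gap at either. Cells stopped by the Clmp, Th or Sst plus Nppb limits lie in that region too.

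Of the further markers given for these neurons, Nostrin was higher in the members than in the Gzmbl3-gated and Clmp-gated groups described below, while Anxa1, Ctla2a and Myo5b were low in the Clmp-gated sums and overlapped widely with the Gzmbl3-gated sums. All 4 were part of how the group was described, so they get no test. Anxa1, a calcium-dependent membrane-binding protein, ran from 555 to 1094 CPM (median 802) in the member sums, from 240.2 to 1161 CPM (median 709) in Gzmbl3-gated sums and from 40.0 to 254 CPM (median 110) in Clmp-gated sums. Nostrin, which binds nitric oxide synthase, ran from 4.13 to 50.8 CPM (median 22.6) in the members, with medians of 1.17 and 1.30 CPM in the Gzmbl3-gated and Clmp-gated sums. In sums of all other cells it ran from 0.326 CPM in batch 32 to 12.9 CPM in batch 27. Per cell, its median was 0 CPM in the members but 4.58 CPM in the 17 cells stopped by the Th limit. Nostrin thus did not set the members apart from those 17 cells, which had 1036 CPM of Anxa1 against the members' 948 CPM. It was 0 CPM in the 65 cells with G above N, the 40 stopped by Clmp and the 16 stopped by Sst plus Nppb. Nostrin was found in 82 of 171 members, in 29 of 185 Gzmbl3-gated cells and in 28 of 171 Clmp-gated cells. With each cell thinned to 20000 UMIs, these shares were 27.5%, 5.95% and 1.75% (median depths before thinning 210685, 213762 and 228662 UMIs). The annotated Nostrin overlaps Spc25 in RefSeq, and whether counting could split them was not tested.

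Ctla2a, of the cathepsin-inhibitor family, had medians of 90.9 CPM in the member sums and 118 CPM in the Gzmbl3-gated sums, against 4.16 CPM in the Clmp-gated sums. Ctla2a belongs to a family of near copies, so its reads may be split. Myo5b, an unconventional myosin that moves recycling endosomes, had medians of 12.7, 14.7 and 0.438 CPM in the same order. In single member cells its median was 0 CPM, with UMIs in 84 of 171. Anxa1 was found in all 171 members, Ctla2a in 151, and Myo5b and Nostrin in fewer than 85 each.

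Ntsr1 and Chrna3 were often found in the same cell. Both had UMIs in 127 members (74.3%), Ntsr1 alone in 13 and Chrna3 alone in 31. The cells with both were deeper, at a median of 278736 UMIs, than those with Ntsr1 alone (72357) or Chrna3 alone (80632). Chrna3 alone was found in 15 of 16 batches, and Ntsr1 alone in 7. In the member sums Ntsr1 ran from 9.82 CPM in batch 23 to 111 CPM in batch 28-3, with a median of 64.9 CPM. Chrna3 ran from 39.9 CPM in batch 22 to 286 CPM in batch 27, with a median of 76.6 CPM. Across the 171 members the 2 genes had a Spearman rho of -0.43, and across all 830 cells 0.29. The limit on their sum bears on the first value, and cells with few UMIs share their zeros.

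**Figure D3:**
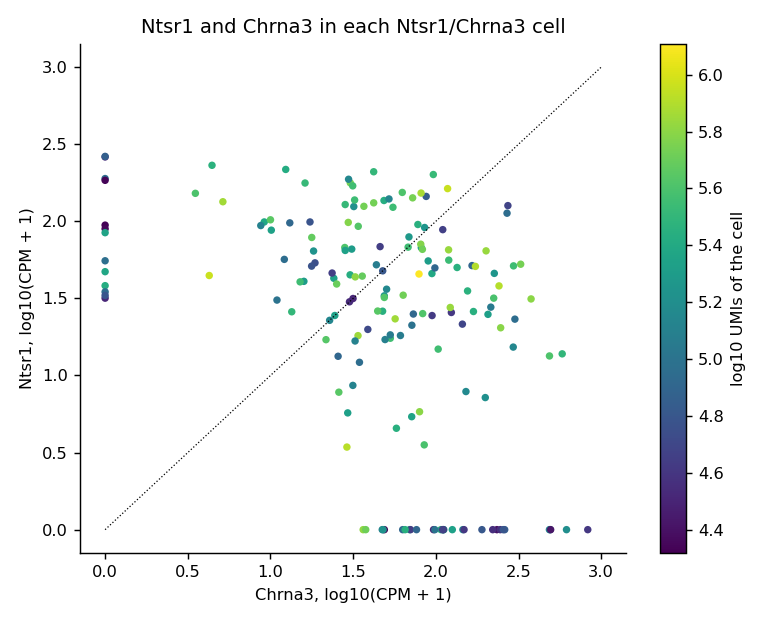
Each point is 1 of the 171 Ntsr1/Chrna3 cells, placed by Chrna3 and Ntsr1 on log10(CPM + 1) axes and coloured by log10 UMIs. Cells on the axes lack UMIs of 1 of the 2 genes and are mostly shallow (medians 72357 and 80632 UMIs), and the empty lower left corner is set by the limit of 30 CPM on the sum.

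Some genes differed in level between members with more Ntsr1 UMIs (68 cells) and members with more Chrna3 UMIs (97 cells). These are named after their values were seen and carry no test. Cckbr, a cholecystokinin receptor, had a median of 29.0 CPM in the Ntsr1-led and 3.51 CPM in the Chrna3-led cells, but within batches the Ntsr1-led median was higher in 8 and lower in 6 of 16. Sprr1a had medians of 545 and 273 CPM, with the Ntsr1-led median higher in 15 of the 16 batches. In the other direction, Perp had medians of 135 and 215 CPM, Scn11a of 10.0 and 24.4 CPM and Scn10a of 11.1 and 38.7 CPM. Within batches the Chrna3-led median was higher in 13 of 16 for Perp and in 12 of 16 for each of the 2 sodium channels. Batches 23 and 24, low in Sprr1a, gave 4 of the 68 Ntsr1-led and 19 of the 97 Chrna3-led cells. The Ntsr1-led cells were deeper, at 241661 against 179474 UMIs, and the part of depth in these values was not tested.

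Outside the genes of the rule, the pattern most like N over all 830 cells belonged to Perp, with a Spearman rho of 0.49 on log2(CPM + 10). Next were Tmem45b (0.48), a transmembrane protein, Cst6 (0.47), a secreted cysteine protease inhibitor, Gna14 (0.42), a G protein alpha subunit, P2rx3 (0.40), Rgs4 (0.39), Piezo2 (0.38), Anxa1, Htr4 and Acpp (each 0.38). These cells share batches and differ in depth, so the values are a description. Within the 171 members the rho of P2rx3 with N was 0.33, that of Tmem45b 0.32 and that of Perp 0.31, while Anxa1 had -0.04 and Piezo2 0.07.

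The members were first compared with all other cells. UMIs were summed per batch and group, and edgeR's quasi-likelihood test with a term for batch was fitted to 11200 genes over 16 pairs of sums. The 10 rule genes and 4 further markers are left out of all counts. The test called 1227 genes (11%) at an adjusted p under 0.05, of which 552 (4.93%) were higher and 675 (6.03%) lower in the Ntsr1/Chrna3 cells. The sums of the 2 groups did not separate fully for any tested gene (0.0%). Without the batch term, which pairs the sums of a batch, 601 genes were called, and without batches 23, 24 and 28-1 the count was 1183. Genes were sorted into lists by role, and each list is read against these shares.

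Among genes of nicotinic receptor subunits and their partners, 3 of 9 tested were higher and 1 was lower, with a median log2 fold change of 0.18 against -0.01 over all tested genes. Against Gzmbl3-gated cells 1 of 9 was higher and 2 were lower, and neither Chrna5 nor Chrnb3 passed. The values that follow are against all other cells. Chrna5, an accessory subunit, ran from 0.435 to 16.8 CPM (median 5.28) in the members and from 1.36 to 6.82 CPM (median 2.36) in the other cells. The groups overlapped, and Chrna5 was higher in 11 of 16 batches (log2 fold change 0.99 ± 0.29 SE, edgeR adjusted p = 0.0294). Tmem35a, a chaperone of nicotinic receptors, rose by 0.48 and Lynx1, which binds these receptors, by 0.23. The calls of these 3 genes were near the threshold: that of Chrna5 ended without any 1 of batches 23, 24, 26, 27, 30, 32 and 35 (edgeR adjusted p from 0.0502 to 0.0638), that of Lynx1 without any 1 of batches 20, 26, 28-1, 28-3, 29 and 31 (0.0509 to 0.0640), and those of Chrna5, Lynx1 and Tmem35a without batches 23, 24 and 28-1 together (0.0762, 0.0640 and 0.0908). With N at least 60 CPM neither Chrna5 (0.73, edgeR adjusted p = 0.292) nor Lynx1 (0.0618) passed, without a filter on low counts they were at 0.0705 and 0.0709, and Lynx1 was at 0.0770 without the batch term. Chrnb3 was at a median of 5.87 against 2.05 CPM and did not pass (1.21 ± 0.52, edgeR adjusted p = 0.143), though it did with DESeq2 (0.0472) and with limma on mean CPM per cell (0.0428). Chrnb4, the usual partner of Chrna3, and Chrna6 were too low to be tested: Chrnb4 had UMIs in 6 of 171 members and 3 of 185 Gzmbl3-gated cells.

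Chrne, annotated as the epsilon subunit of the muscle receptor, was the gene of this list that was lower against all other cells. It ran from 18.6 to 148 CPM (median 50.9) in the members and from 79.6 to 231 CPM (median 151) in the other cells, lower in 15 of 16 batches (-1.44 ± 0.17, edgeR adjusted p = 3.04e-06). In RefSeq this gene overlaps Gp1ba and C10h17orf107, and the strand setting of the counts is not known here, so its UMIs may belong in part to them.

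Nts, which encodes the ligand of Ntsr1, was higher in the members. It ran from 5.21 to 111 CPM (median 44.2) in the members and from 3.53 to 45.5 CPM (median 23.0) in the other cells. It was higher in 12 of 16 batches and the groups overlapped (1.04 ± 0.32, edgeR adjusted p = 0.0355). This call ended without any 1 of batches 20, 22, 26, 28-1, 28-3, 29, 30, 31, 33 and 35 (edgeR adjusted p from 0.0519 to 0.0737) and without the batch term (0.0501), as it did with N at least 60 CPM (0.0799), with cells of at least 50000 UMIs (0.0546) and without batches 23, 24 and 28-1 (0.0622). In single cells Nts was uneven: its median was 8.87 CPM in Ntsr1-led members and 3.20 CPM in Chrna3-led members (higher in the former in 8 and lower in 6 of 16 batches), with UMIs in 44 of 68 and 54 of 97 cells. Of 25 tested neuropeptide and granin genes Nts alone rose, and 7 fell (4.93% and 6.03% over all tested genes). Calca, the CGRP precursor, ran from 302 to 867 CPM (median 505) against 746 to 1706 CPM (median 1135). It was lower in 16 of 16 batches (-1.21 ± 0.10, edgeR adjusted p = 1.20e-08). Tac1, the substance P precursor, fell by 1.40 and Adcyap1, which encodes PACAP, fell by 1.47 on the log2 scale, while Crh (-0.68 ± 0.48) did not pass.

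Of 19 TRP, Piezo, ASIC and purinergic channel genes, 3 rose and 3 fell (4.93% and 6.03% over all tested genes). P2rx3 ran from 206 to 777 CPM (median 438) in the members and from 177 to 452 CPM (median 258) in the other cells, higher in 15 of 16 batches (0.61 ± 0.12, edgeR adjusted p = 0.00151). Piezo2, the mechanically gated channel of touch, had medians of 145 and 86.1 CPM and was higher in 14 of 16 batches (0.65 ± 0.10, edgeR adjusted p = 6.15e-05). Asic3 and Asic1, which open in acid, fell by 0.88 and 0.81, and Trpm8, the cold sensor, by 1.14. The calls of the first 2 ended without the batch term (edgeR adjusted p = 0.181 and 0.151), and that of Trpm8 without any 1 of batches 20, 23, 26, 30, 33 and 35 (0.0506 to 0.0677) and with N at least 60 CPM (0.0780). Trpv1, the heat and capsaicin receptor, was at medians of 5.51 and 6.74 CPM and did not pass, and Trpa1 was just outside the threshold (-1.01 ± 0.33, edgeR adjusted p = 0.0512). Trpa1 passed, as lower, with DESeq2 (adjusted p = 0.00486), and with edgeR with N at least 60 CPM (0.0282), with at least 50000 UMIs (0.0484), with no filter on low counts (0.0300) and without batch 20, 30 or 33 (0.0435, 0.0398 and 0.0422).

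Sodium, potassium, HCN and calcium channel genes were called higher more often than lower, 13 against 4 of 53 tested, with a median of 0.12. The shares over all tested genes were 4.93% and 6.03%. Against Gzmbl3-gated cells 5 of 55 rose and 3 fell, near the shares over all tested genes there (8.21% and 8.83%). Scn11a did not pass in that comparison. Scn11a, the nociceptor sodium channel Nav1.9, had medians of 32.7 and 19.7 CPM (0.81 ± 0.20, edgeR adjusted p = 0.00959), while Scn10a, which encodes Nav1.8, did not pass (-0.16 ± 0.19). Without the batch term Scn11a did not pass (edgeR adjusted p = 0.110). The 2-pore potassium channels moved apart. Kcnk18, encoding TRESK, ran from 1.88 to 27.6 CPM (median 9.80) against 0.280 to 8.51 CPM (median 2.31) and rose by 1.77 ± 0.41 (edgeR adjusted p = 0.00594), and Kcnk1 rose by 0.90, but not with N at least 60 CPM (0.59, edgeR adjusted p = 0.0688). Kcnk3, encoding TASK-1, had medians of 0.704 and 11.3 CPM and fell by 3.06, and Kcnk2, encoding TREK-1, fell by 1.86; both were lower in 16 of 16 batches. Kcnip4, a cytosolic partner of Kv4 channels, rose by 1.23 and was higher in 15 of 16 batches.

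Among growth factor and cytokine receptors 1 of 24 rose and 4 fell (4.93% and 6.03% over all tested genes). Ret, the signalling receptor of the GDNF family, rose slightly, from a median of 141 to 188 CPM (0.32 ± 0.08, edgeR adjusted p = 0.00911, and 0.0655 without the batch term). Kit, the stem cell factor receptor, had medians of 10.5 and 86.5 CPM and fell by 2.76. Gfra2 (-0.66 ± 0.34) and Gfra3 (0.21 ± 0.09) did not pass, and with N at least 60 CPM they did (-1.17 and 0.30, edgeR adjusted p = 0.0335 and 0.0356). Of the G protein-coupled receptors 1 of 31 rose and 9 fell, to be read against the same shares (4.93% and 6.03%). The riser was Adora2b, a receptor for adenosine, which ran from 2.18 to 41.3 CPM (median 14.7) against 0.620 to 22.0 CPM (median 2.97) and was higher in 14 of 16 batches (2.34 ± 0.38, edgeR adjusted p = 2.09e-04). Among the fallers were the receptor-activity-modifying protein Ramp3 (-2.93) and the lysophosphatidic acid receptor Lpar1 (-2.15).

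By size, the highest called genes past the level limit included Gabrb1 (1.80), Arhgap36 (1.63), Pkp1 (1.61), Dgkg (1.53), Pmfbp1 (1.39), Grxcr2 (1.27), Kcnip4, Perp (1.21) and Cdhr1 (1.20), each a log2 fold change. The call of Grxcr2 ended without any 1 of batches 20, 22, 23, 25, 26, 29, 30, 31 and 35 (edgeR adjusted p from 0.0524 to 0.0685) and without batches 23, 24 and 28-1 together (0.0724). Gabrb1 is a subunit of the GABA-A receptor, Pkp1 and Perp are desmosome proteins, and Dgkg is a diacylglycerol kinase. Cdhr1 was higher in 16 of 16 batches. At the other end were Lamp5 (-4.17), Fcgrt (-3.08), Ramp3, Kit, Rbp4 (-2.59), Gsg1 (-2.58), Emp1 (-2.50), Gda (-2.46), Fxyd7 (-2.44) and Cyp1b1 (-2.38). Gda did not pass without the batch term (-1.48, edgeR adjusted p = 0.0710). Lamp5, Fcgrt, Kit, Fxyd7 and Cyp1b1 were lower in 16 of 16 batches. Lamp5, a lysosome-associated membrane protein, had medians of 0.868 and 20.8 CPM.

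The other cells hold both gated groups, so each of those was also compared alone. Gzmbl3-gated cells, 185 in number, met the same limits on Th, Clmp and Sst plus Nppb, with G at least 30 CPM and above N. Gzmbl3 is annotated as a granzyme-like gene, and Lpar3, a lysophosphatidic acid receptor, is known from non-peptidergic neurons. The joint edgeR fit called 1895 of 11127 genes (17.0%), 913 (8.21%) higher and 982 (8.83%) lower in the members, and 1603 without batches 23, 24 and 28-1. The member sums are those used above, so these counts are not independent of the first.

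Receptors for neurotrophic factors and cytokines were called in both directions, 4 higher and 4 lower of 24 tested (8.21% and 8.83% over all tested genes). Their median was -0.01 against 0.01 over all tested genes. Gfra2, the neurturin co-receptor, ran from 1.27 to 44.7 CPM (median 9.67) against 12.4 to 83.3 CPM (median 49.3), lower in 15 of 16 batches (-1.75 ± 0.35, edgeR adjusted p = 4.98e-04). Ret did not pass (0.03 ± 0.15), Ngfr rose by 0.92, Osmr by 1.25 and Gfra3 by 0.38. The call of Osmr ended without batch 20 or 26 (edgeR adjusted p = 0.0505 and 0.0533) and that of Gfra3 without batch 25 (0.0521).

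Only 4 tested genes had sums that did not overlap between these 2 groups (0.0359%), and in all 4 the members were lower. Runx1, the transcription factor of non-peptidergic neurons, ran from 27.9 to 129 CPM (median 61.1) in the members and from 152 to 273 CPM (median 199) in the Gzmbl3-gated sums (-1.62 ± 0.18, edgeR adjusted p = 3.55e-08). Chrne ran from 18.3 to 144 CPM against 192 to 443 CPM (-2.43 ± 0.20). The others, named after their values were seen, were Cflar, an inhibitor of caspase-8 activation (medians 26.4 and 92.8 CPM), and Slc2a1, which encodes the glucose transporter GLUT1 (medians 157 and 291 CPM).

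**Figure D4:**
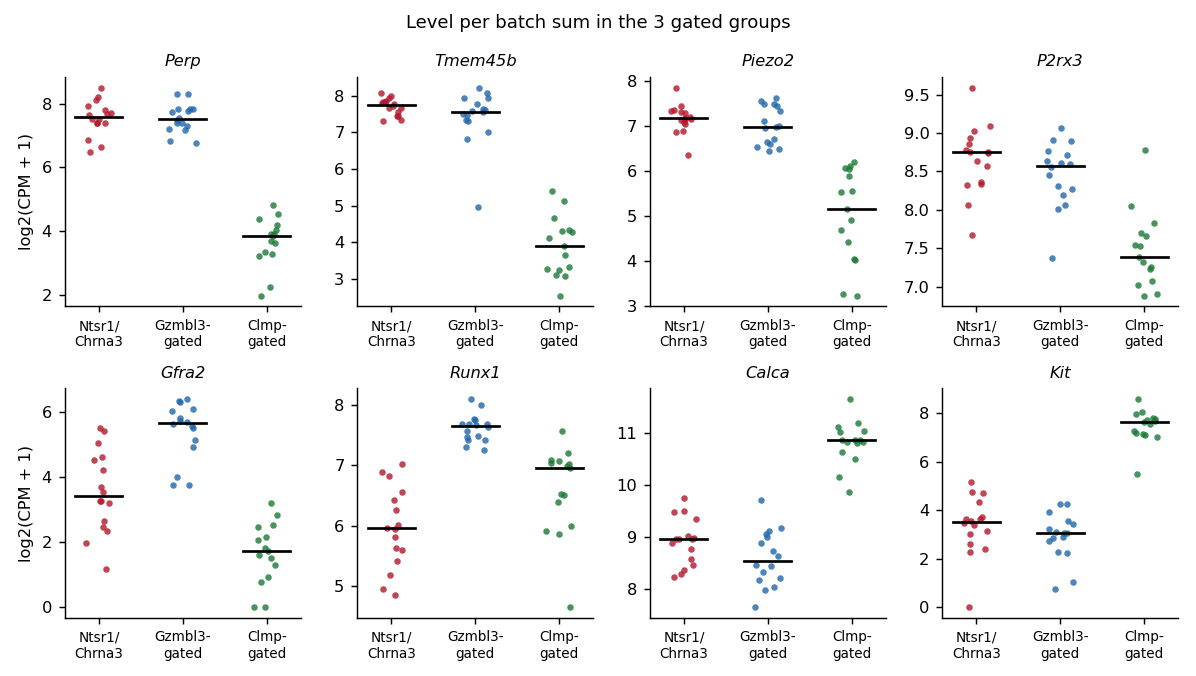
Level of 8 genes in the summed UMIs of each batch, as log2(CPM + 1), in Ntsr1/Chrna3 cells, Gzmbl3-gated cells (16 sums each) and Clmp-gated cells (15 sums); bars are medians. Perp, Tmem45b, Piezo2 and P2rx3 overlap between the first 2 groups and have lower medians in the Clmp-gated cells, Runx1 separates the members from the Gzmbl3-gated cells, and Calca and Kit separate them from the Clmp-gated cells.

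Among called genes with a symbol, at 20 CPM or more in the higher group and alike in direction in at least 80% of batches, the 10 highest of this comparison were Mgst1 (3.15), Arhgap36 (2.63), Cckbr (2.17), Cldn3 (2.02), Gstm7 (1.83), Asic3 (1.75), Slc1a1 (1.73), Nts (1.62), Pnma8b (1.57) and Glrx (1.57). Mgst1 and Gstm7 are glutathione transferases, Glrx is a glutaredoxin, and Slc1a1 takes up glutamate and cysteine. Gstm7 ran from 19.4 to 115 CPM (median 61.2) against 8.25 to 46.5 CPM (median 15.9) and was higher in 16 of 16 batches, as were Slc1a1 and Glrx. Mgst1 was less even, at 0 to 149 CPM (median 30.0) against 0 to 24.5 CPM (median 1.53). Asic3 was higher than in the Gzmbl3-gated cells, while it was lower than in all other cells as 1 group: its medians were 70.8 CPM in the members and 19.0 CPM in the Gzmbl3-gated sums. Adora2b rose by 2.75. The call of Nts ended without batch 31 (edgeR adjusted p = 0.0516).

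By the same limits, the 10 lowest against Gzmbl3-gated cells were Spon1 (-2.92), Mmp9 (-2.87), Cdh1 (-2.85), Gsg1 (-2.83), Mmp12 (-2.71), Nlrp5 (-2.61), Chrne, Ggt1 (-2.38), Cnfn (-2.21) and Upb1 (-2.16). Mmp9 and Mmp12 are matrix metalloproteinases and Cdh1 is E-cadherin. Ggt1, which cleaves extracellular glutathione, had medians of 7.52 and 58.4 CPM and was lower in 16 of 16 batches. Crh, the corticotropin-releasing hormone gene, had medians of 12.5 and 51.3 CPM and fell by 1.78, and Scn10a fell by 0.75. With each cell thinned to 20000 UMIs Scn10a did not pass (edgeR adjusted p = 0.540).

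Epithelial junction genes were called in both directions, 4 higher and 10 lower of 44 tested, with a median of -0.15 (8.21% and 8.83% over all tested genes). Cldn3, a claudin, and Dsg2, a desmoglein, rose by 2.02 and 2.52, and Pkp1 rose by 1.32, though Pkp1 did not pass with limma on mean CPM per cell (adjusted p = 0.193). Cdh1, Lad1 (-2.48) and Dsc2 (-1.31) fell. Perp was at medians of 192 and 184 CPM and did not pass (0.03 ± 0.15, edgeR adjusted p = 0.932). The same held for Tmem45b (0.22 ± 0.16), Piezo2 (0.11 ± 0.18), P2rx3 (0.18 ± 0.14), Rgs4 (0.23 ± 0.18), Calca (0.31 ± 0.15) and Tac1 (0.32 ± 0.23). Failing the test does not show that these levels are equal.

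Clmp-gated cells, 171 in number, had Clmp at least 30 CPM, N and G each under 30 CPM, and the same limits on Th and on Sst plus Nppb. Clmp encodes a cell adhesion molecule. Batch 24 had 0 of them, so 15 batches enter. The joint fit called 2160 of 11127 genes (19.4%), 1104 (9.92%) higher and 1056 (9.49%) lower in the Ntsr1/Chrna3 cells, and 2472 without batches 23, 24 and 28-1. For 49 genes (0.44%) the sums did not overlap.

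Peptidergic markers were lower in the members: 11 of 13 tested fell and 1 rose, with a median of -2.24 against 0.02 over all tested genes. The gates set these 2 groups apart by Clmp, and how far that fixed this contrast was not tested. Against Gzmbl3-gated cells, which met the members' Clmp limit, 2 of 13 rose and 0 fell, with a median of 0.48 against 0.01. Over all tested genes those shares were 8.21% and 8.83%. Calca ran from 298 to 859 CPM (median 494) in the members and from 934 to 3218 CPM (median 1859) in the Clmp-gated sums, without overlap (-1.97 ± 0.16, edgeR adjusted p = 1.76e-12). Tac1 ran from 41.1 to 287 CPM against 309 to 945 CPM and Adcyap1 from 10.3 to 421 CPM against 546 to 1190 CPM, and neither overlapped. Kit ran from 0 to 34.5 CPM (median 10.4) against 44.4 to 386 CPM (median 202). Asic3 fell by 2.04, so its level lay between those of the Gzmbl3-gated and the Clmp-gated cells. The summed peptidergic markers had medians of 1374 CPM in the members, 912 CPM in the Gzmbl3-gated sums and 4492 CPM in the Clmp-gated sums.

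Of 19 TRP, Piezo, ASIC and purinergic channel genes 3 rose and 3 fell (9.92% and 9.49% over all tested genes). Their median log2 fold change was 0.04, and Piezo2 and P2rx3 were among the risers. Piezo2 ran from 81.1 to 231 CPM (median 143) against 8.34 to 72.6 CPM (median 34.6), without overlap (1.96 ± 0.20, edgeR adjusted p = 2.09e-09). P2rx3 had medians of 429 and 166 CPM (1.17 ± 0.15, edgeR adjusted p = 1.05e-07). Kcnk18 ran from 1.86 to 27.2 CPM (median 9.58) against 0 to 1.03 CPM (median 0), higher in 15 of 15 batches (5.81 ± 0.64), a fitted value that rests on few UMIs in the lower group. Scn10a rose by 1.12 and Scn11a by 1.39. Chrna5 rose by 3.10 and Chrnb3 by 2.79, each from a median under 0.5 CPM in the Clmp-gated sums.

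Of 44 epithelial junction and apical trafficking genes 18 rose and 5 fell, with a median of 0.33 (9.92% and 9.49% over all tested genes). Cldn3 ran from 7.27 to 65.9 CPM (median 26.5) against 0 to 4.15 CPM (median 1.61), without overlap (4.40 ± 0.50, edgeR adjusted p = 1.13e-08). Perp ran from 88.5 to 363 CPM (median 192) against 2.91 to 27.4 CPM (median 13.3), also without overlap (3.90 ± 0.19, edgeR adjusted p = 1.34e-18). The promoter of Perp is the one shown above with both motifs. Among genes higher against Clmp-gated cells 61.0% held a GC box and 5.88% an AP-1 site, and among lower genes 62.1% and 5.77%. The shares among tested genes were 60.8% and 4.21%, and any part of the motifs in these levels was not tested. Cd9 and Ezr were among the 5 genes of the list that fell, by 2.95 and 1.88. Among the highest genes by the same limits, outside this list, were Galnt6 (4.28), Htr4 (4.20), a serotonin receptor, Tmem45b (3.86), Alk (3.75), a receptor tyrosine kinase, Lgi1 (3.46), Mab21l1 (3.44), Dgkg (3.37) and Gabrb1 (3.35). At the other end stood Scara3 (-4.56), Crabp1 (-4.31), which binds retinoic acid, Fcgrt (-4.10), Kcnk3 (-4.04), Ptchd1 (-4.03), Lamp5 (-3.92), Pde1a (-3.86) and Kcnmb2 (-3.81).

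**Figure D5:**
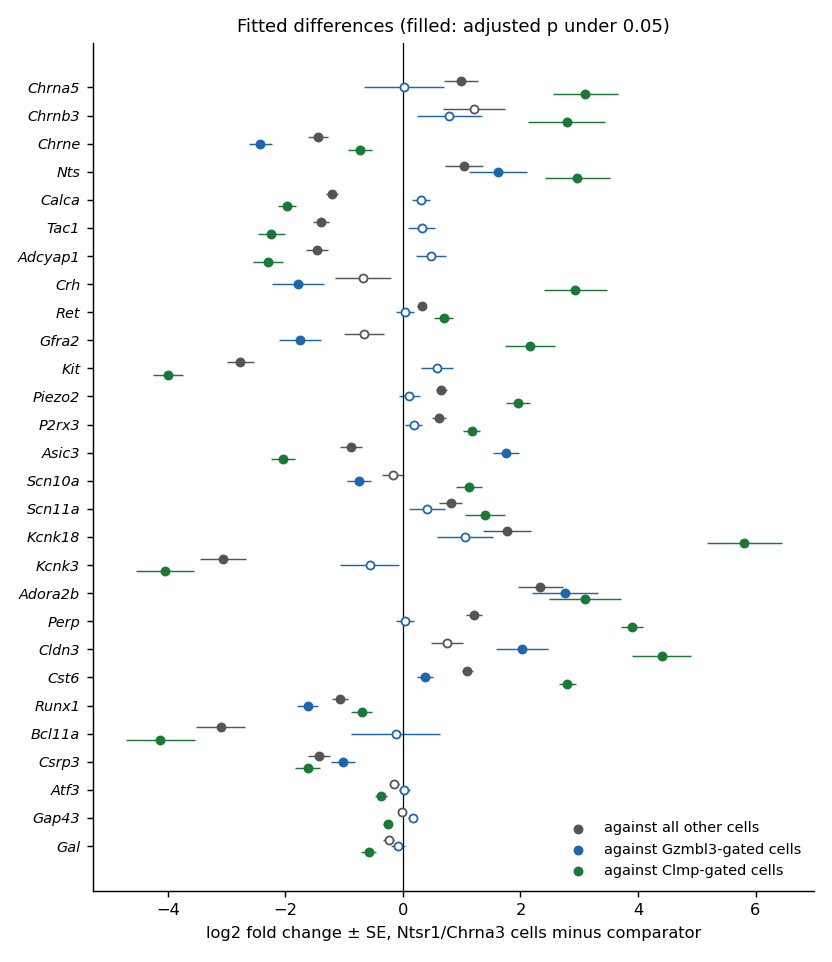
Fitted log2 fold change ± SE of 28 genes, Ntsr1/Chrna3 cells minus each comparator; filled points passed an edgeR adjusted p under 0.05. Asic3 lies above 0 against Gzmbl3-gated cells and below 0 against Clmp-gated cells, Crh, Gfra2 and Scn10a the reverse, and Nts and Adora2b lie above 0 in all 3 comparisons.

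Of the transcription factors of sensory subtypes, 4 of 45 tested rose and 8 fell against all other cells (4.93% and 6.03% over all tested genes). Against Gzmbl3-gated cells 6 of 42 rose and 4 fell (8.21% and 8.83% over all tested genes). Against Clmp-gated cells 10 of 42 rose and 7 fell (9.92% and 9.49%). Bcl11a, a zinc-finger repressor, had a median of 0.390 CPM in the members and 11.3 CPM in the Clmp-gated sums (-4.13 ± 0.59, edgeR adjusted p = 1.16e-06), and did not pass against Gzmbl3-gated cells (-0.12 ± 0.76). Runx1 was lower than in both, by 1.62 and 0.70. The smaller of these did not pass with each cell thinned to 20000 UMIs (edgeR adjusted p = 0.0837). Foxp1, a forkhead factor, rose by 0.98 against all other cells and by 0.94 against Gzmbl3-gated cells, and Etv1, an ETS factor, rose by 2.43 against the latter from a median of 1.05 to 5.04 CPM. The last call ended without batches 23, 24 and 28-1 (edgeR adjusted p = 0.0659). Tcf4 fell against all other cells (-1.37) and against Clmp-gated cells (-1.71).

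The study is titled around axon growth capacity, so regeneration and growth genes were counted. Against all other cells 2 of 47 tested regeneration-associated genes rose and 11 fell (4.93% and 6.03% over all tested genes). Against Gzmbl3-gated cells 6 of 48 rose and 5 fell (8.21% and 8.83% over all tested genes). Against Clmp-gated cells 7 of 48 rose and 16 fell (9.92% and 9.49%), with a median of -0.18. Csrp3, a LIM protein induced in injured neurons, ran from 63.8 to 657 CPM (median 229.7) in the members and from 190 to 962 CPM (median 645) in all other cells. It was lower in 16 of 16 batches (-1.42 ± 0.19, edgeR adjusted p = 1.37e-05), and it also fell against Gzmbl3-gated (-1.03) and Clmp-gated cells (-1.62). Atf3, the injury-induced transcription factor, was at 360.4 to 1078 CPM (median 649) against 593 to 999.5 CPM (median 699) and did not pass (-0.14 ± 0.07). It fell against Clmp-gated cells (-0.37 ± 0.10, edgeR adjusted p = 0.00384).

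Gap43, the growth cone protein, was at 1211 to 2068 CPM (median 1547) against 1272 to 2056 CPM (median 1521) and did not pass (-0.01 ± 0.05). Against Clmp-gated cells Gap43 fell by 0.26 and Gal by 0.58. Ecel1, an endopeptidase induced by injury, rose by 0.44 against all other cells (edgeR adjusted p = 0.0598 without the batch term), and Itga7, an integrin of growing axons, rose by 1.63 against Clmp-gated cells. Of 40 growth cone and cytoskeleton genes 4 rose and 0 fell against all other cells (edgeR, 4.93% and 6.03% over all tested genes). Against Gzmbl3-gated cells 10 rose and 0 fell (8.21% and 8.83% over all tested genes), and against Clmp-gated cells 1 rose and 6 fell (9.92% and 9.49%). Ina, an intermediate filament protein, rose by 0.42 and 0.78 against all other and Clmp-gated cells, and Prph, Nefh and Tubb4a rose by 0.39, 0.46 and 0.44 against Gzmbl3-gated cells. With each cell thinned to 20000 UMIs these 3 did not pass (edgeR adjusted p = 0.0797, 0.103 and 0.120), nor did Gap43 against Clmp-gated cells (0.357). Myo10 and Dclk1 fell against Clmp-gated cells, by 0.78 and 0.47.

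Markers of other cell types were summed in each group. 17 glial genes together were at 1061 to 1583 CPM (median 1225) in the member sums and 1217 to 1495 CPM (median 1339) in all other cells, led by Pmp22 in the members (median 824 CPM). Of 10 tested glial genes, 4 were lower and 1 was higher than in all other cells, with a median log2 fold change of -0.59. Over all tested genes those shares were 6.03% and 4.93%. Of the 17 glial genes, Kcnj10 was at 0 in the members, and 0 members passed 5000 CPM of glial RNA against 4 cells of the whole series. Immune markers were at 5.72 to 94.8 CPM (median 22.1) against 24.2 to 102 CPM (median 41.2), with Ptprc, Cd3e and C1qb at 0, and vessel markers at 6.56 to 104 CPM (median 34.3) against 23.9 to 75.7 CPM (median 43.8), with Kdr and Cldn5 at 0. In the Gzmbl3-gated and Clmp-gated sums the vessel markers had medians of 80.6 and 18.0 CPM. Of 5 tested, Cdh5, Tek and Pdgfrb were lower in the members than in the Gzmbl3-gated cells, and Rgs5 and Pdgfrb were higher than in the Clmp-gated cells. Cdh5 had medians of 9.51 CPM in the members and 50.1 CPM in the Gzmbl3-gated sums. The Gzmbl3 neuron list, without the rule genes, was at 15.9 to 210 CPM (median 52.6) in the members, led by Grik1 (median 51.4). It was at 16.8 to 142 CPM (median 33.3) in Gzmbl3-gated and 5.41 to 27.6 CPM in Clmp-gated sums. Its median in all other cells was 24.9 CPM. The neurofilament, C-low-threshold and Th, and Trpm8 neuron lists had member medians of 1412, 111 and 10.9 CPM. In all other cells these medians were 1658, 95.4 and 26.3 CPM. The ranges of each list overlapped. The Trpm8 list was uneven, at 3.85 to 131 CPM in the member sums and 6.58 to 46.7 CPM in all other cells. Its highest member sum thus stood above every sum of the other cells, and the rule set no limit on this class. The itch neuron list, with Sst and Nppb left out, was at 18.0 to 137 CPM (median 65.7) against 13.5 to 78.1 CPM (median 46.5), and Nts and Osmr make up most of it. With the 4 other cells over 5000 CPM of glial RNA left out, 1218 genes were called against all other cells, 1217 of them among the 1227. So few cells left the comparison that this count could hardly move. The part of glial, immune and vessel RNA and of RNA of the other neuron classes in the results was not tested. Mrgprd, the usual non-peptidergic marker of mouse, had UMIs in 2 members and 3 Gzmbl3-gated cells.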

How the data were processed

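Single dorsal root ganglion neurons were read in 17 batches, each a table of UMI counts per gene and cell over 32883 gene rows. Per the submitters' processing notes, the authors made the deposited counts with STAR, UMI-tools, featureCounts, Subread and SAMtools on Rnor_6.0; the tools' versions and the strand setting are not known here. Batch 21 equals batch 20 in every value, so 1040 of 1080 cells were read, and 830 with at least 2000 genes and 20000 UMIs were kept. Kept cells were grouped by gates in CPM, computed here by scaling the deposited counts of each cell to 1000000. No 2 cells held identical counts; cell numbers 1 to 96 recur across batches, and barcodes are not in the tables used here. Because neurons were picked 1 by 1, doublets were not searched for.

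Sums of UMIs were made for each batch and group of at least 3 cells. Genes passing filterByExpr were tested with edgeR 4.0.16 in R 4.3.3 (TMM factors, quasi-likelihood F-test, terms for group and batch), with Benjamini-Hochberg adjustment over all genes tested. The 2 gated comparisons came from 1 fit over the 3 gated groups, in which the missing Clmp-gated sum of batch 24 is simply absent. The sums of a batch are paired because their cells carry the same batch label. The labels do not say that batches are separate animals, so the p-values measure only how the difference between groups varied over batches. That variation may be technical. The procedure was also run on simulated counts with known changes. Those counts held no batch effects and no gating of cells, so that run cannot speak for the paired, gated sums used here. limma 3.58.1, DESeq2 1.42.0, other filters, gates and depth limits, and leaving out batches were alternatives, of which leaving out batches 23, 24 and 28-1 together was chosen after seeing the data; summaries used Python 3.11.15, pandas 2.3.3 and NumPy 2.4.6. Depth set the precision: kept cells held at least 20000 UMIs, and member sums held 524191 to 5797036 UMIs.

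The members and gene lists were chosen with earlier results of these data known. Named genes were the 10 highest and 10 lowest calls (20 CPM or more in the group where the gene is higher, and 80% or more of batches alike in direction), the leading called genes of each list, and listed receptor, channel and peptide genes; some are not reported here, and others are said to be named after their values were seen. Promoters are RefSeq GRCr8, which is not the build of the counts, and carry no measured values.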

Additional observations from a re-analysis of the deposited data

How the results depend on the processing

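The counts called against all other, Gzmbl3-gated and Clmp-gated cells were 1227, 1895 and 2160. They moved by over 1.5 times with each cell thinned to 20000 UMIs, to 379, 497 and 672, where only 6174, 4946 and 4946 genes had enough UMIs to test. With cells of at least 50000 UMIs they were 1181, 1860 and 2171. Without the batch block that pairs the sums of a batch they were 601, 1394 and 1799. Leaving out 1 batch in turn gave 966 to 1262, 1536 to 1887 and 1875 to 2359. In every setting run, each gene called both there and in the reported fit kept its direction. Of the genes called against all other cells 45.0% were higher, against 55.9% with thinned cells, 56.8% with limma voom, and 29.0% without a filter on low counts, where the median log2 fold change of all genes moved to -0.16; against Clmp-gated cells the share was 51.1%, and 61.3% with limma on mean CPM per cell. The cause of these shifts was not tested. With means over cells in place of medians, log10 UMIs differed by 0.0731 ± 0.136 (SD, n = 16; permutation p = 0.0465). The members' share of cells moved by less than 1 SD over batches in the settings run. With cells thinned before the gate 154 cells were members, 122 of them among the 171.

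Values that changed sign were all of genes that did not pass. Against all other cells Scn10a came to 0.0090 with N at least 60 CPM and 0.052 with thinned cells, and Gap43 to 0.0055 with N at least 60 CPM and 0.023 with at least 50000 UMIs. Against Gzmbl3-gated cells, N at least 60 CPM gave Chrna5 -0.14 and Atf3 -0.016, thinned cells gave Tac1 -0.18, Atf3 -0.063 and Gap43 -0.025, limma on mean CPM gave Atf3 -0.058 and Gap43 -0.013, limma voom gave Atf3 -0.014, the fit with no block gave Gal 0.0010, and leaving out batches 23, 24 and 28-1 gave Chrna5 -0.19 and Atf3 -0.042. Leaving out 1 batch in turn gave values on both sides of 0 for Gap43 against all other cells (-0.042 to 0.011), and against Gzmbl3-gated cells for Ret (-0.033 to 0.10), Perp (-0.029 to 0.14), Bcl11a (-0.43 to 0.28), Atf3 (-0.028 to 0.064) and Chrna5 (-0.15 to 0.16). Of 4947 pairs of a gene result and a setting, 4768 kept direction and call, 119 lost the call, 22 gained it and 38 changed sign. Of the 4768, 2755 came from leaving out 1 batch. Those fits share most cells with the reported fit, so agreement there was largely built in. With thinned cells only 85 of the 178 gene results could be tested, and the rest are not in this tally. The depth limits what thinning leaves: a gene needs several UMIs per sum to be tested.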
